A study of Bos taurus with 21 samples.

Results

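The comparison set 7 cows with clinical mastitis against 7 cows with subclinical mastitis by the small RNA of extracellular vesicles (EVs) from their serum, which are particles with a membrane that cells shed into blood. Mastitis is inflammation of the udder. In the clinical form the milk or the udder is visibly altered, and in the subclinical form it is not. These 14 libraries were taken from 21, and the other 7 came from healthy cows, whose values are given beside the comparison and entered no test of it. All cows were Bos taurus and the material was serum in every group. The sources used here give no breed, age, stage of lactation, infecting organism or method of vesicle isolation. Each library was 1 cow, and nothing in the labels pairs a clinical cow with a subclinical one.

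The table held 847 rows. Of these, 298 carried the name of a known bovine miRNA (known rows) and 549 carried only a chromosome name and a number, such as 3_6921 (numbered rows). In the 14 libraries 290 known and 546 numbered rows were read at least once. Values are given as signal, about the reads of a row per 1000000 reads of its block, where known rows form one block and numbered rows the other. A signal is thus close to a share of its own block, and when one abundant row takes more of a library the others take less. It is not exactly that share, since the signals of a block sum to 2.06% to 3.96% (known) or 8.71% to 18.4% (numbered) above 1000000. Known and numbered signals were not compared with each other.

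miRNAs are short RNAs that pair with messenger RNAs through a seed near their 5′ end and repress them. Cells release some of them in vesicles, so a serum sample mixes RNA of blood cells, vessel walls, liver, udder and other organs. Several miRNAs are made mainly by one cell type, such as miR-122 by hepatocytes, miR-223 by neutrophils and monocytes, miR-486 and miR-451 by red cells and miR-126 by endothelium, and are used as tracers of that source. In such a mixture, fewer vesicles of a type and less of the miRNA per vesicle cannot be told apart.

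Depth differed between libraries and between groups. Known reads ran from 1386 (clinical cow 4) to 34565 (clinical cow 7), and numbered reads from 22659 to 50212. One known read was therefore worth between 29.6 and 748 units of signal, and one numbered read between 22.4 and 51.0. Clinical cow 7 stood apart from the other clinical cows, with more known reads than any of the 14. Counts of reads carry no molecular identifiers, so the intervals and floors below cover counting error only. The tracer miRNAs of blood were present in both groups, with miR-126-5p, let-7a-5p and let-7f among the most abundant known rows.

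Of 617 rows with enough reads to test, 17 passed, and all 17 were lower in clinical than in subclinical cows (2.76% of rows tested). No row passed as higher (limma on log2(signal + 100), adjusted p under 0.05), while 78 rows were lower and 10 higher at an unadjusted p under 0.05. Rows could enter the test through 1 group alone. Of those tested 11 had 0 clinical reads and 2 had 0 subclinical reads, with 0 limma calls among the 11. The filter asked for reads in at least 5 of the 14 libraries. The called rows miR-215, miR-122 and miR-192 were read in 2, 3 and 4 clinical libraries, and 1_1270, 16_30460, X_45976 and 18_32724 in 1. Among the other called rows, 11_22742 and 14_26999 were read in 2 clinical libraries, 24_40335 in 3 and 7_15989 in 4. Such rows met the filter through the group where they were high. Without the filter limma called the same 17 rows. The known rows gave 3 calls of 148 tested (2.03%), miR-215, miR-122 and miR-192. The numbered rows gave 14 of 469 (2.99%). With no row called higher by limma, edgeR, which tests the reads themselves, called 36 rows lower (5.83%) and 3 higher (0.486%), among them 9 known rows (6.08%) and 30 numbered rows (6.40%). DESeq2 called 42 rows in either direction (6.81%). limma and edgeR shared 16 calls, and all 17 limma calls were also called by DESeq2.

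**Figure D1:**
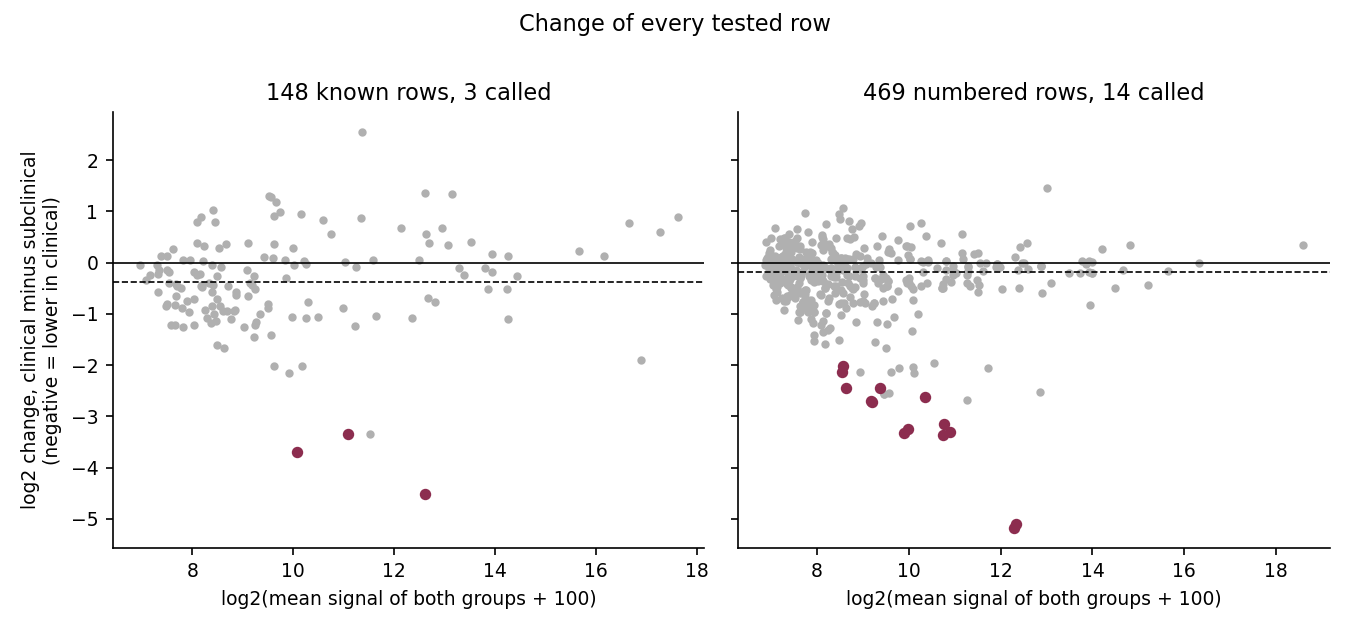
Each point is 1 tested row, known rows on the left and numbered rows on the right. The x axis is the log2 of its mean signal over both groups plus 100, the y axis the limma log2 change (negative is lower in clinical cows), and the dashed line the median of the block. The 17 coloured points, 3 known and 14 numbered, passed at an adjusted p under 0.05 and all lie below 0.

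Most known rows sat slightly below 0 (99 of 148 lower), with a median limma log2 change of -0.37. The median of the numbered rows was -0.19. With 1 scale for both blocks the medians were -0.62 and 0.02, and with median-ratio scaling -0.36 and -0.06. The shift of the known rows depended on other choices too. With depth as a covariate 77 lay below 0 and 71 above, with a median of -0.08. Over rows read in at least 10 libraries the median was -0.09, and with a pseudocount of 1 it was -1.55. Small changes of a family are read against these shifts.

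Of the tested known rows, the liver miRNA miR-122 had the lowest limma log2 change. miR-122, which dominates the miRNA of hepatocytes and sustains their lipid and cholesterol metabolism, had a signal of 0, 0 and 2457 in clinical cows (lowest, median, highest) and of 642, 8116 and 27833 in subclinical cows. It was read in 3 of 7 clinical cows (21 reads in all) and in 7 of 7 subclinical cows (1196 reads). The groups overlapped, because clinical cows 2 and 5, with 5 and 8 reads, lay above subclinical cows 2 and 7. Healthy cows had 0, 0 and 4324. The mean was 735.5 ± 1178 in clinical and 11473 ± 9982 in subclinical cows (SD, n = 7), a ratio of 15.6. The limma log2 change was -4.51 (SE 0.94, adjusted p = 0.00834), and edgeR gave -4.62 (adjusted p = 0.000251). miR-122 passed in 14 of 14 limma fits that left out 1 library, and its ratio of means rose to 25.6 without clinical cow 2 and likewise to 25.6 without clinical cow 5.

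The other liver-linked rows were sparse and did not pass limma. miR-885, a miRNA known in human serum for rising with liver disease, had no read in clinical cows, 0 of 64783 known reads. Such a count permits a share of up to 0.00463% over the group. Clinical cow 7 alone held 34565 of those known reads, so this floor rests largely on 1 cow. Subclinical cows had 23 reads of miR-885 in 5 of 7 libraries, 10 of them in cow 3, with signals of 0, 144 and 760.5. With these 23 reads taken as exact, the subclinical share was at least 4.28-fold higher than this clinical floor of 3 reads over the group (limma adjusted p = 0.115, edgeR adjusted p = 0.0535). miR-483, which lies in the IGF2 gene and is expressed in fetal liver, had 3 clinical reads, all in cow 7, and 23 subclinical reads in 5 cows. Its share over the group was 4.28 times as high in subclinical cows, with an exact 95% counting interval of 1.29 to 22.3 (limma log2 change -1.26, adjusted p = 0.138; edgeR adjusted p = 0.241). Of the 3 hepatocyte rows tested, 1 passed limma and 1 edgeR, and the median log2 change was -1.26, or -2.10 with miR-885 at its bound, against -0.37 over all known rows. miR-885 was tested only through its 5 subclinical libraries, so its direction was fixed by the filter and the median is no support. The 3 rows together took a median of 0% of known reads in clinical cows (highest 0.237%) and 0.796% in subclinical cows (lowest 0.0941%, highest 2.85%). miR-122 gave 21 of their 24 clinical and 1196 of their 1242 subclinical reads, so this share mostly restates miR-122. Healthy cows ranged from 0% to 0.508%.

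**Figure D2:**
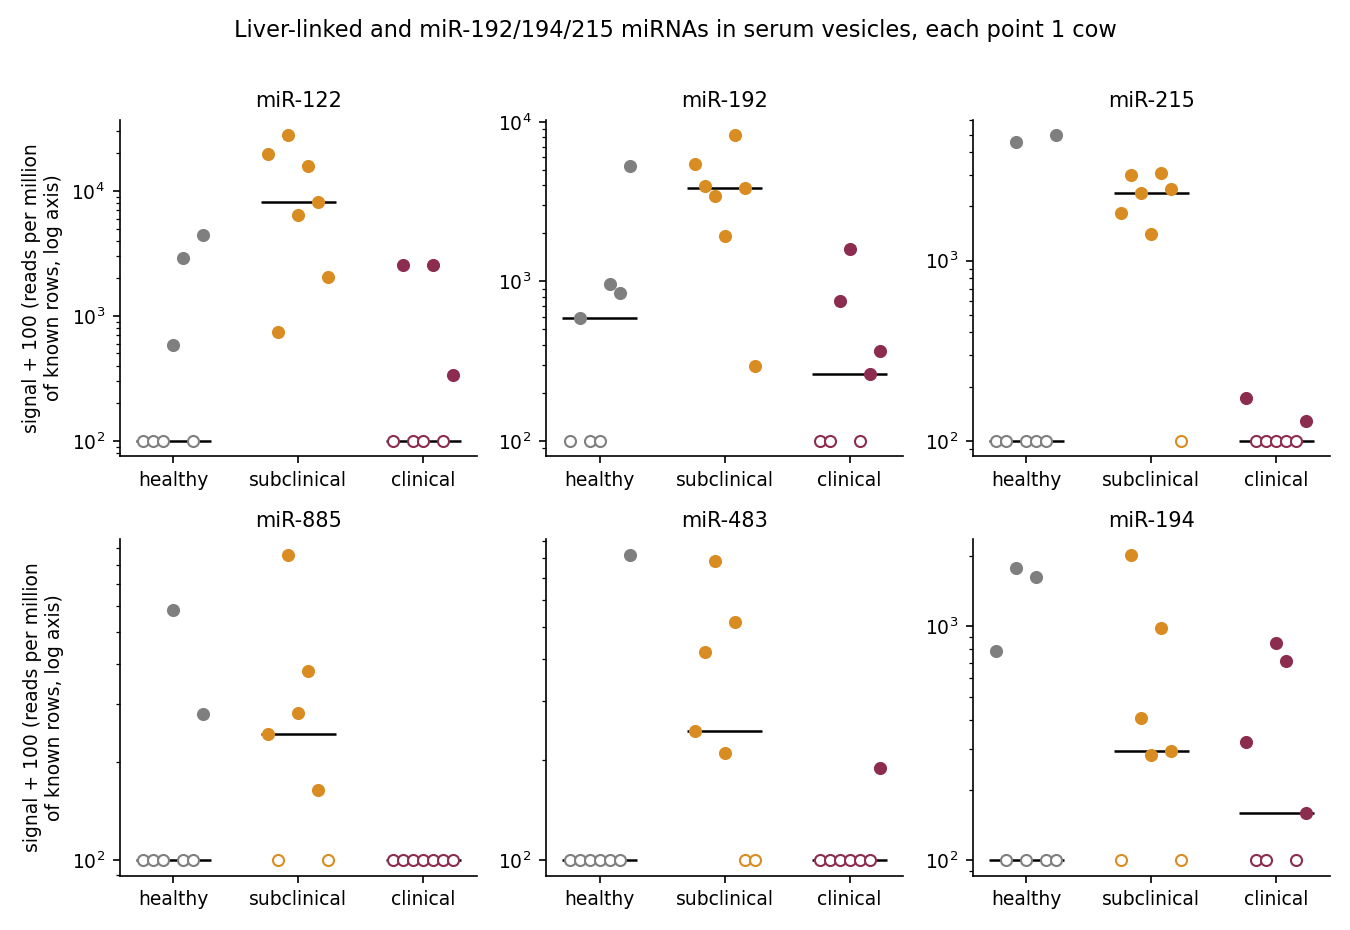
Signal plus 100 of 6 known miRNAs on a log axis, by group, with 1 point for each cow, open points for 0 reads and lines for group medians. For miR-122, miR-192 and miR-215 the subclinical medians of 8116, 3736 and 2281 stand above the clinical medians of 0, 163 and 0.

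miR-192 and miR-215 share a seed, are abundant in liver, gut and kidney, and are each made from a transcript that also carries a copy of miR-194. In the RefSeq annotation of a later cattle assembly, MIR215 lies within 5000 bases of MIR194-1 and MIR192 within 5000 bases of MIR194-2. miR-215 had signals of 0, 0 and 73.9 in clinical cows and of 0, 2281 and 2970 in subclinical cows. Every clinical cow lay below 6 of the 7 subclinical cows, and the exception was subclinical cow 7, which had 0 reads among 26129 known reads. Healthy cows had 0, 0 and 4865, with 2 of 7 libraries well above the rest. The summed reads were 2 in clinical and 188 in subclinical cows. As shares of known reads these differed 52.5-fold, with an exact 95% counting interval of 14.3 to 436. The limma log2 change was -3.70 (SE 0.62, adjusted p = 0.00232), with an edgeR adjusted p of 0.000353, and miR-215 passed in 14 of 14 limma fits without 1 library. The ratio of the group means, 131, rested on 1 read in clinical cow 1 and was 393 without that cow.

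miR-192 had signals of 0, 163 and 1496 in clinical cows and of 196, 3736 and 8167 in subclinical cows. It was read in 4 of 7 clinical libraries (14 reads) and 7 of 7 subclinical libraries (382 reads), and 6 of the 7 subclinical cows lay above every clinical cow. Healthy cows spanned 0, 487 and 5225. The mean was 369 ± 550 against 3777 ± 2533 (SD, n = 7), a ratio of 10.2, or 20.9 without clinical cow 4, where 2 reads gave the highest clinical signal. The limma log2 change was -3.35 (SE 0.74, adjusted p = 0.0137), with an edgeR adjusted p of 0.00131.

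miR-194, the partner of both on their transcripts, did not pass. Its signals were 0, 59.2 and 748 in clinical cows and 0, 193 and 1926 in subclinical cows, so the groups overlapped broadly (limma log2 change -0.63 ± 0.72 SE, adjusted p = 0.758, and -1.47 by edgeR, adjusted p = 0.591). It had 8 reads in clinical and 37 in subclinical cows. Of the 5 rows of this family that the table holds, 3 were tested, and 2 passed limma and edgeR, both lower. The family took a median of 0.0347% of known reads in clinical cows (highest 0.216%) and 0.614% in subclinical cows (lowest 0.0191%, highest 1.17%). Of its 615 subclinical reads 382 were of miR-192 and 188 of miR-215, so this share mostly restates the 2 called rows.

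Known depth differed beside these calls. Clinical cows 2, 3, 4 and 5 had between 1386 and 3388 known reads. Clinical cow 7, with 34565 known reads, had 8 reads of miR-122, 9 of miR-192 and 1 of miR-215, at signals of 237, 266 and 29.6. Those values lay below 7 of 7, 6 of 7 and 6 of 7 subclinical cows. Clinical cow 1, with 13914 known reads, had 0, 0 and 1 reads of these miRNAs. With the depth of each block as a covariate, the limma fit called all 3 of these known rows. The part of known depth in their low clinical values was not tested further.

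Among the other known rows, 5 passed edgeR as lower and did not pass limma. miR-12034, named in cattle, had signals of 0, 29.6 and 655 in clinical cows and of 182, 3852 and 16393 in subclinical cows. The subclinical cows fell apart on it, with cows 1, 2, 3 and 5 at 3852 or above and cows 4, 6 and 7 at 386.5 or below. Healthy cows had 0, 342 and 3423. It had 7 clinical and 416 subclinical reads, and the ratio of means was 27.4, or 44.2 without clinical cow 3 (limma log2 change -3.34, SE 0.92, adjusted p = 0.0595). edgeR gave -5.47 (adjusted p = 0.000353) and DESeq2 passed it too (adjusted p = 1.46e-05). limma called it without subclinical cow 4, 6 or 7, with adjusted p values of 0.0155, 0.0397 and 0.0246.

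miR-1246, which in human cells can be cut from the U2 small nuclear RNA, is described after its values were seen. It was the third most abundant known row. Its signals were 7319, 55348 and 79115.5 in clinical cows, 28558, 123395 and 455217 in subclinical cows and 15438, 43784 and 94114 in healthy cows. Above every clinical cow lay 5 of the 7 subclinical cows. The mean was 47767 ± 28388 against 192744 ± 158785 (SD, n = 7), 4.04-fold lower in clinical cows (edgeR log2 change -2.45, adjusted p = 0.00181; limma -1.91, SE 0.66, adjusted p = 0.138). It passed edgeR in 14 of 14 fits without 1 library, and limma without subclinical cow 4 (-2.28, adjusted p = 0.0429).

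miR-423-5p, an abundant serum miRNA described after its values were seen, was also higher in subclinical cows by edgeR. Its signals were 6750, 9171 and 14786 in clinical cows, 5974, 21949 and 75589 in subclinical cows and 6160, 14437 and 36036 in healthy cows. The clinical cows kept to a narrow band, with 5 of the 7 subclinical cows above it and 1 below it. The edgeR log2 change was -1.84 (adjusted p = 0.00424), and without subclinical cow 3, the highest library, the adjusted p was 0.0550. limma gave -1.10 (SE 0.43, adjusted p = 0.203) and passed it without subclinical cow 4 (adjusted p = 0.0338).

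miR-143, a miRNA of smooth muscle and stroma, had 0 of the 64783 clinical known reads and 24 subclinical reads in 5 cows. With these 24 reads taken as exact, the subclinical share was at least 4.47-fold higher than the clinical floor of 3 reads over the group. Clinical cow 7 held 34565 of the clinical known reads, so that floor rests largely on 1 cow. Read in exactly 5 libraries, all subclinical, it met the filter only through the group where it was high, so its direction was fixed by that. It passed edgeR (adjusted p = 0.0452), but in only 2 of the 9 fits without 1 library in which it was tested. The adjusted p ran from 0.0634 without clinical cow 2 to 0.119 without clinical cow 7 in the other 7, each of which left out 1 clinical cow. limma did not pass it (adjusted p = 0.102). miR-145, which neighbours miR-143 in the genome, had 1 clinical and 28 subclinical reads and passed neither test (limma adjusted p = 0.371; edgeR adjusted p = 0.207). Of the 4 tested rows of the smooth muscle and stroma list, miR-214 among them (limma adjusted p = 0.598), 0 passed limma and 1, miR-143, passed edgeR.

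miR-193a-5p, described after its values were seen, rested on few cows. Its 2 clinical reads were in cow 6. Its subclinical reads were 30 in cow 1, 46 in cow 3, 27 in cow 5 and 4 in cow 6, while cows 2, 4 and 7 had 0. As shares of known reads these differed 29.9-fold, with an exact 95% counting interval of 8.07 to 249.8. Leaving out subclinical cow 1 took the ratio of means from 28.6 to 17.9. It passed edgeR (-4.94, adjusted p = 0.0217) but not without clinical cow 5 (adjusted p = 0.0513) or clinical cow 7 (0.0604), and it did not pass limma (adjusted p = 0.273).

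A pair of further rows stood next in line by their limma p. miR-2431-3p was read in 2 of 7 clinical and 7 of 7 subclinical cows, at signals of 0, 0 and 414.5 against 129, 313 and 1284 (limma -1.66, adjusted p = 0.110; edgeR adjusted p = 0.446). It passed limma without clinical cow 7 (adjusted p = 0.0359). miR-328, placed on the platelet-linked list, was read in 3 and 7 cows, at 0, 0 and 1035 against 196, 863 and 5136 (limma -2.15, adjusted p = 0.115; edgeR adjusted p = 0.159).

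No known row passed limma as higher in clinical cows. The row nearest to it was miR-11987, named in cattle, with signals of 207, 2279 and 14959 in clinical cows, 0, 328 and 2445 in subclinical cows and 0, 1501.5 and 8361 in healthy cows. Of the 7 clinical cows 6 lay above the subclinical mean, and 3 above every subclinical cow. The limma log2 change was 2.54 (SE 0.80, adjusted p = 0.105), edgeR gave 2.36 (adjusted p = 0.0637), and DESeq2 passed it (adjusted p = 0.0114). limma passed it without clinical cow 7 (3.04, adjusted p = 0.0231) or without subclinical cow 1 (2.97, adjusted p = 0.0441). The ratio of means, 7.35, was 4.47 without clinical cow 4 and 14.9 without subclinical cow 1.

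miR-574 had signals of 1747, 13514 and 28501 in clinical cows, 1879, 3607 and 11236 in subclinical cows and 4685, 20270.3 and 49624 in healthy cows. Of the clinical cows 4 lay above every subclinical cow and 1 below every one (limma 1.34, adjusted p = 0.218; edgeR adjusted p = 0.190). Without clinical cow 7 limma gave 1.74 (adjusted p = 0.0335). miR-184, described after its values were seen, passed edgeR as higher (4.11, adjusted p = 0.0424) on 31 clinical reads, 21 of them in cow 3, against 7 subclinical reads. edgeR gave an adjusted p of 0.388 without clinical cow 3, 0.0878 without clinical cow 5 and 0.0734 without subclinical cow 6, and limma did not pass it (adjusted p = 0.563).

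The let-7 family, which represses growth and cell cycle genes and is abundant in blood, gave 0 calls. Of its 10 tested rows 8 had a limma change above 0, with a median of 0.25. The direction depended on the scaling, since 6 of 10 lay above 0 with median-ratio scaling, 5 of 10 by edgeR and 0 of 10 with 1 scale for both blocks (median -1.11). let-7a-5p had signals of 123485, 183129 and 278482 in clinical cows, 80578, 115963 and 181295 in subclinical cows and 163296, 183778 and 192308 in healthy cows (limma 0.59, adjusted p = 0.182). let-7f had 77629, 130890 and 168048 in clinical and 35313, 79814 and 127480 in subclinical cows, with 5 clinical cows above every subclinical one (limma 0.76, adjusted p = 0.167). let-7d had 1966, 5830 and 9463 against 2247, 2876 and 5050 (limma 0.68, adjusted p = 0.344). Members of this family differ by few bases, and the sources used here do not say how reads that match several of them were assigned.

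The abundant known rows and miR-1246 share 1 total. In subclinical cows 1, 2 and 3 miR-1246 had signals of 312338, 455217 and 279392, the 3 highest of the 14 libraries. The same 3 cows had the 3 lowest subclinical values of let-7f (43572, 35313 and 56806) and of let-7a-5p (85418, 80578 and 98403). They also had the 3 lowest subclinical values of miR-126-5p (104832, 29534.5 and 60000.0). What part the shared total had in the higher clinical levels of these rows was not tested.

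**Figure D3:**
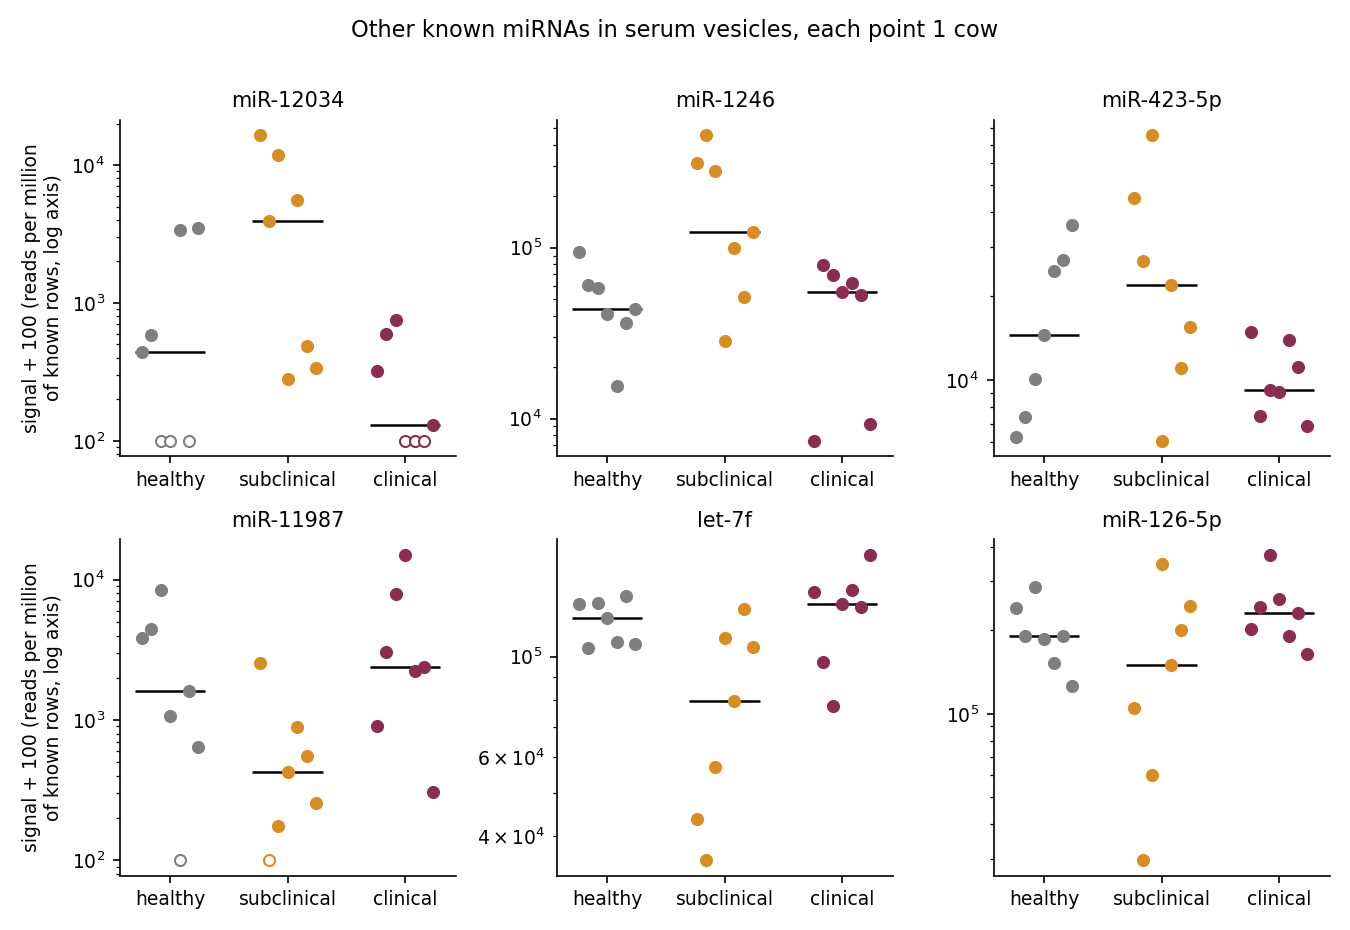
Signal plus 100 of 6 further known miRNAs on a log axis, by group, with 1 point for each cow, open points for 0 reads and lines for group medians. miR-12034, miR-1246 and miR-423-5p had higher medians in subclinical cows (3852, 123395 and 21949), and miR-11987, let-7f and miR-126-5p in clinical cows (2279, 130890 and 230381), with overlap of the groups in each panel.

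The miRNAs of vessels and blood cells gave 0 calls by limma and by edgeR. The tested rows were 2 endothelial, 3 myeloid, 2 red cell, 4 lymphocyte and 3 platelet-linked ones. miR-126-5p of endothelium, the most abundant known row, had signals of 164229, 230381 and 374058 in clinical cows and 29534.5, 150394 and 345245 in subclinical cows (limma 0.88, SE 0.42, adjusted p = 0.344), with an edgeR adjusted p of 0.719. miR-126-3p, the other arm of its precursor, had a limma change of 0.67 (adjusted p = 0.392). Both endothelial rows were below 0 with 1 scale for both blocks (median -0.85).

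miR-223, which restrains the activation of neutrophils, had 7534, 21479 and 27577 in clinical and 10210.0, 21977 and 39165 in subclinical cows (limma -0.27, SE 0.33, adjusted p = 0.780), with an edgeR adjusted p of 0.410. miR-142-3p, made in blood cells of many lineages, had 4603, 5897 and 13899 against 1438, 4553 and 16693 (limma 0.56, adjusted p = 0.566). For red cells, miR-486 had 4913, 9463 and 11967 against 5136, 9534 and 26603 (limma -0.25, SE 0.33, adjusted p = 0.817), and miR-451 was read in 4 and 5 cows (adjusted p = 0.947). The red cell list took a median of 0.963% of known reads in clinical and 0.996% in subclinical cows, and the myeloid list 2.80% and 2.98%.

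The lymphocyte miRNA miR-150 had 5984, 13759 and 24910.5 in clinical and 8669, 16286 and 23114 in subclinical cows (limma -0.19, adjusted p = 0.853). miR-342, also of lymphocytes, had a limma change of -1.07 (SE 0.88, adjusted p = 0.597), and the platelet-linked miR-191 one of -0.11 (SE 0.29, adjusted p = 0.929). The groups overlapped in all of these rows. The p values do not show that the levels were alike.

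miRNAs that inflammation induces in other settings gave 0 calls among 3 tested rows of 5 in the table. miR-21-5p, raised in many inflamed tissues, had 2948, 14328 and 22180 in clinical and 8916, 15409 and 25290.0 in subclinical cows (limma -0.51, SE 0.41, adjusted p = 0.594), with an edgeR adjusted p of 0.519. miR-221 had a limma change of 0.09 (SE 0.54, adjusted p = 0.980). Epithelial and udder miRNAs were sparse, with 18 clinical and 67 subclinical reads over 9 rows, of which 2 were tested and 0 called. miR-200c, an epithelial miRNA, was read in 2 clinical and 6 subclinical cows (limma -0.46, adjusted p = 0.857). miR-148a, abundant in milk, had 8 clinical and 5 subclinical reads (limma 0.27, adjusted p = 0.860).

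Among the broader families, the miR-29 rows, which repress collagen genes, lay below 0 in 4 of 4 tested rows without a call (median -1.16). miR-29a was read in 4 clinical and 7 subclinical cows, at signals of 0, 503 and 1227 against 548, 1749 and 2568 (limma -2.01, SE 0.67, adjusted p = 0.123), with an edgeR adjusted p of 0.232. miR-29b had 0, 1496 and 2948 against 1135, 2889 and 4943 (limma -1.23, adjusted p = 0.344). Of 9 tested rows of the miR-17-92 cluster and its paralogs, known for promoting proliferation, 7 lay below 0, with a median of -0.52. miR-25 had 9205, 14979 and 21130 in clinical and 13156, 23094 and 38144 in subclinical cows (limma -0.52, SE 0.27, adjusted p = 0.364), and miR-92a had 1534, 6350 and 8975 against 4189, 8341 and 15437 (limma -0.77, adjusted p = 0.357). With depth as a covariate the miR-17-92 median was -0.09 (6 of 9 below 0) and 3 of the 4 miR-29 rows lay below 0. With 1 scale for both blocks, 134 of the 148 tested known rows lay below 0, against 99 in the main fit. On that scale limma passed miR-29a (adjusted p = 0.0158), miR-29b (0.0149), miR-92a (0.0301) and miR-25 (0.0355).

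The remaining lists gave 0 limma calls. Of the miR-23/27/24 rows (5 tested, median 0.16), miR-23a had medians of 52408 and 53801 in clinical and subclinical cows (limma adjusted p = 0.571) and miR-23b-3p 18673 and 15855 (adjusted p = 0.857). The miR-30 rows (3 tested, median -0.46) included miR-30c (adjusted p = 0.772) and miR-30b-5p (0.808), and the rows of miR-15/16 and miR-103 with its paralog (5 tested, median -0.24) included miR-16b (0.780) and miR-103 (0.861). miR-1 of striated muscle had a limma change of 0.90 (SE 0.91, adjusted p = 0.686). Of the 73 cattle-specific and other high-numbered names 26 were tested (median -0.05), among them miR-10174-3p (0.13, adjusted p = 0.886), and miR-12034 was the 1 that edgeR called. The 14 rows of the imprinted DLK1-DIO3 cluster, with 20 clinical and 22 subclinical reads, were too sparse to test. The lists covered 92 of the 148 tested known rows.

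The numbered rows held the calls with the smallest p. In 10 of the 617 tested rows every clinical cow lay below every subclinical cow (1.62%), all 10 of them numbered, and in 0 rows did every clinical cow lie above (0.00%). Each of the 10 was read in every subclinical cow, so it met the filter of 5 libraries whatever its clinical reads. Some of them have equal or almost equal reads, as given below, so they are not 10 separate results. The row 3_6921 had signals of 25.0, 44.8 and 186 in clinical cows, 742, 9628 and 22172 in subclinical cows and 0, 81.0 and 2383 in healthy cows. It had 18 clinical reads, spread over 7 of 7 cows, and 1601 subclinical reads. The mean was 71.6 ± 65.6 against 10004 ± 9300 (SD, n = 7), a ratio of 139.6 (limma log2 change -5.09 ± 0.67 SE, adjusted p = 0.000211, and -6.74 by edgeR, adjusted p = 0.000204).

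The row 7_15338 had almost the same reads, 15 in clinical and 1574 in subclinical cows. Its reads and those of 3_6921 differed by at most 10 in a library, with a correlation of 0.9999 over the 14 libraries, so they are not separate results (limma -5.18, SE 0.67, adjusted p = 0.000211). The ratio of its means was 166, or 258 without clinical cow 6.

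The row 14_28121 was read in 7 of 7 cows of both groups. Its signals were 75.1, 179 and 426 in clinical cows and 689.7, 1661 and 4788 in subclinical cows, without overlap, and 0, 203 and 2118 in healthy cows. The mean was 224 ± 120.3 against 2183 ± 1524 (SD, n = 7), a ratio of 9.75 (limma -2.62, SE 0.42, adjusted p = 0.00192), with an edgeR adjusted p of 0.00148. The row 1_1270 had 1 clinical read, in cow 7, against 266 subclinical reads, with signals of 264, 530.1 and 6561 in subclinical cows and 0, 0 and 153 in healthy cows. As shares of numbered reads these differed 419.7-fold, with an exact 95% counting interval of 74.7 to 16639. Subclinical cow 1 held 148 of the 266 reads, and the ratio of means went from 333 to 175 without it (limma -3.32, SE 0.57, adjusted p = 0.00232), with an edgeR adjusted p of 0.000251.

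The other 10 numbered calls, listed after their values were seen, were 24_40335, 16_30460, 11_22742, 14_26999, 18_33664, 7_15601, 7_15989, 17_32009, X_45976 and 18_32724. Their limma log2 changes ran from -3.37 (18_33664) to -2.03 (18_32724), with adjusted p values from 0.00253 to 0.0299. With depth as a covariate none of the 10 passed, and 7_15601 (0.077), 17_32009 (0.18) and 18_32724 (0.84) had changes above 0. X_45976 passed limma in 6 of the 14 fits that left out 1 library and was farthest from the threshold without clinical cow 2. 18_32724 passed in 5 of 14 (adjusted p = 0.0717 without clinical cow 6), and edgeR did not pass it (adjusted p = 0.0604). 7_15989 passed limma in 14 of 14, and was lost in edgeR without subclinical cow 3 (adjusted p = 0.0522).

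Several called numbered rows moved together over the libraries and are not independent of each other. 7_15601, 18_33664 and 17_32009 had 557, 496 and 505 reads over the 14 libraries, and correlations of their reads from 0.994 to 0.999. 1_1270 and 11_22742 had 267 and 285 reads and a correlation of 0.995. The table gives no sequence for numbered rows, and whether such rows count the same reads was not tested. In all, 68 numbered rows equalled another numbered row in the 14 libraries, among them 19_34664 and 19_34663, which did not overlap between the groups (limma adjusted p = 0.0595; edgeR adjusted p = 0.00218).

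**Figure D4:**
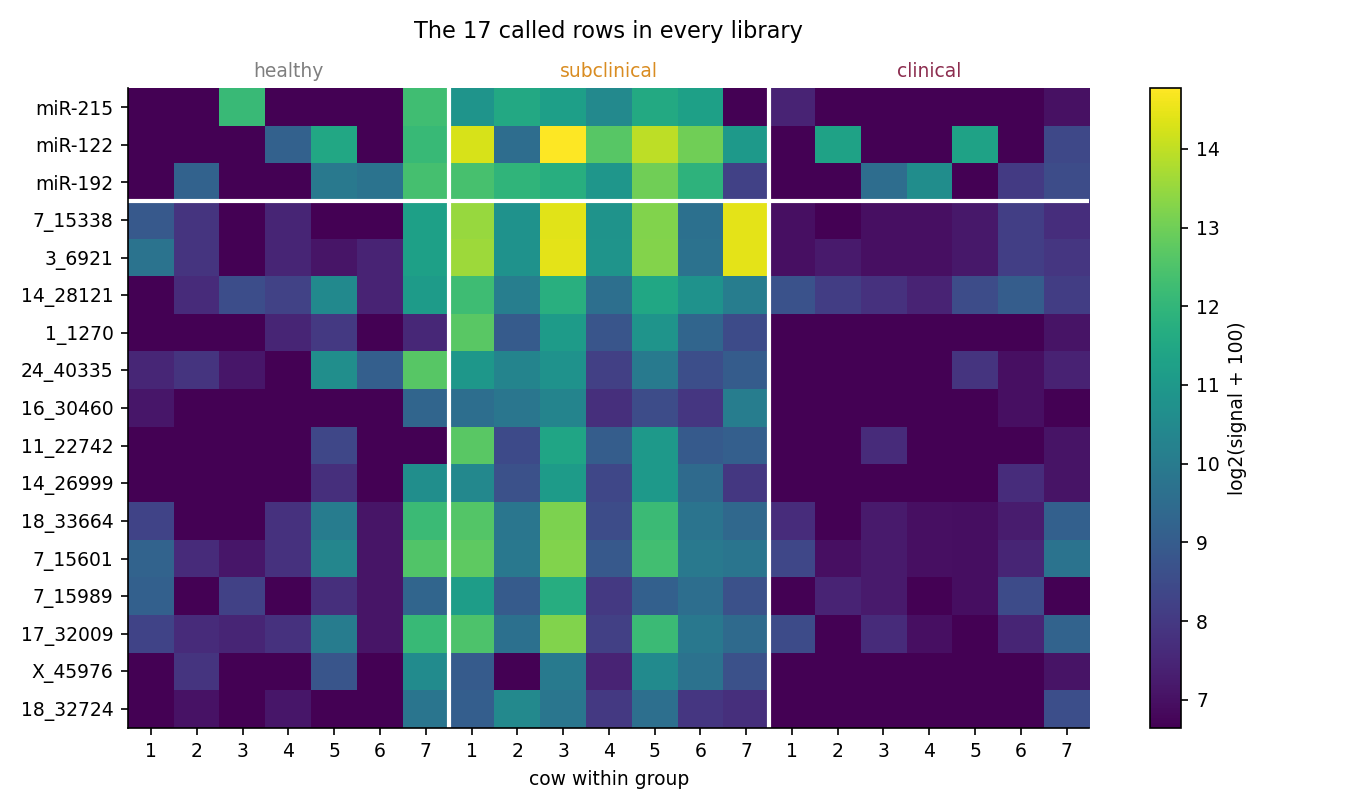
The 17 called rows (3 known above the white line, 14 numbered below it) in all 21 libraries, with colour for log2(signal + 100), columns for the cows of each group and the darkest cells for 0 reads. The 17 rows summed to between 10 and 92 reads in each clinical library and between 248 and 2206 in each subclinical library.

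Within the subclinical group the called rows were carried unequally. Cow 3 had one of the 3 highest subclinical values in 15 of the 17 rows, cow 1 in 13 and cow 5 in 12. Cow 4 had one in 0 rows and was the lowest in 7, although it had the most known reads of its group (28045). Cow 7 differed by row, with 21886 for 7_15338, the highest value of the group, and 0 for miR-215. The 17 rows summed to 1694, 248, 2206, 434, 1574, 479 and 1374 reads in subclinical cows 1 to 7 and to 38, 18, 23, 10, 33, 55 and 92 in clinical cows 1 to 7. The rows were chosen for being lower in clinical cows, so the gap between those sums is a description.

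In healthy cows the called rows were mostly low as well. The healthy median was below the subclinical median in 17 of the 17 rows and below the lowest subclinical cow in 14. Single healthy cows were higher, and the highest healthy value exceeded the highest clinical value in 17 rows and the subclinical median in 11. Healthy cow 7, which had the fewest numbered reads (13033) and the most known reads (5706) of its group, was the highest healthy library in 15 of the 17 rows. Without it those counts were 15 and 6, and the counts for the healthy median stayed at 17 and 14. The 17 rows summed to between 21 and 454 reads in the healthy libraries, and to at most 200 without cow 7. The rows were chosen for subclinical values above clinical ones, so all these counts are a description. The same counts were not made over all tested rows, and whether healthy cows resembled clinical cows was not tested.

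limma called no numbered row higher in clinical cows, while edgeR called 4_9843 and 2_2973, and DESeq2 called both as well (adjusted p = 0.000514 and 7.6e-05). 4_9843 was the most abundant numbered row, with 4.79 times the mean signal of the next, and took 34.9% to 42.9% of numbered reads in clinical cows, 23.1% to 36.2% in subclinical cows and 25.5% to 35.3% in healthy cows. Its signals were 392568, 440411 and 472380 in clinical and 273714, 352723 and 407388 in subclinical cows, and 5 of the 7 clinical cows lay above every subclinical cow. edgeR passed it (log2 change 0.70, adjusted p = 0.00333) and limma did not (0.33, SE 0.12, adjusted p = 0.149). 17_32007 had 19 reads in 5 clinical cows and 0 in subclinical cows (edgeR adjusted p = 0.0663, limma adjusted p = 0.138). With its 19 reads taken as exact, the clinical share was at least 4.01-fold higher than the subclinical floor of 3 reads over the group. Read in exactly 5 libraries, all clinical, it met the filter only through the group where it was high, so its direction was fixed by that.

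2_2973, described after its values were seen, passed edgeR (4.52, adjusted p = 0.0219) on 2 cows. It had 3200 reads in clinical cow 4 and 879 in clinical cow 1, and between 14 and 49 in each other library of the comparison. Without clinical cow 4 the ratio of means went from 15.2 to 4.55 and edgeR gave an adjusted p of 0.0894, and without subclinical cow 3 one of 0.0522 (limma adjusted p = 0.451 with all libraries). Of the 28 numbered rows that edgeR called as lower, with log2 changes from -8.02 to -2.52, 15 were not called by limma.

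The libraries themselves differed between the groups. Numbered reads were higher in clinical cows, at 42325 ± 5757 against 26825 ± 3645 (SD, n = 7; two-sided exact permutation p = 0.00117, adjusted p = 0.00816 over 7 measures, where 0.000583 is the smallest p possible). The top 10 numbered rows of a library took 67.7% ± 3.6 against 59.4% ± 3.8 of its numbered reads (exact permutation p = 0.00233, adjusted p = 0.00816). Known reads were 9255 ± 11944 against 16578 ± 9423 (exact permutation p = 0.220, or 0.308 adjusted). The known share of all reads was 15.9% ± 17.9 against 35.2% ± 13.97 (exact permutation p = 0.0484, adjusted p = 0.0846), and known rows read per library were 96.9 ± 34.3 against 142 ± 30.2 (exact permutation p = 0.0280, adjusted p = 0.0653). Without clinical cow 7 these 3 measures passed, with adjusted exact permutation p values of 0.0310, 0.0112 and 0.0112, and the latter pair also passed without subclinical cow 2 (0.0418 and 0.0245). The number of numbered rows read was 381 ± 13.7 against 387 ± 26.04 (exact permutation p = 0.643), and the top 10 known rows took 79.1% ± 3.0 against 76.8% ± 5.3 (exact permutation p = 0.357).

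**Figure D5:**
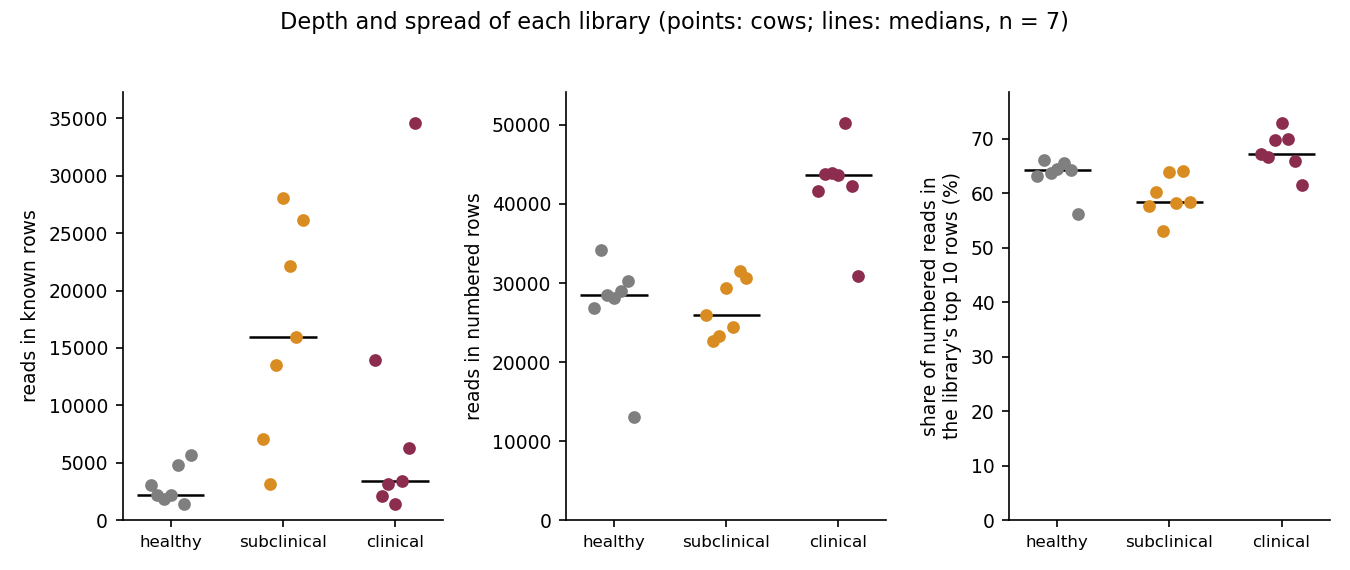
Reads in known rows, reads in numbered rows and the share of numbered reads in the top 10 rows of each library, by group, with 1 point for each cow, lines for medians and axes from 0. Of the 7 clinical libraries 6 held more numbered reads (41596 to 50212) than any subclinical library (22659 to 31515), and clinical cow 7 held 30931.

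Numbered depth moved with the group, and clinical libraries were the deeper ones in this block. With the depth of each block as a covariate limma called 10 rows, 7 lower and 3 higher, and of the 17 calls only the 3 known ones were among them. The smallest adjusted p of the 14 numbered calls in that fit was 0.387 (7_15338, log2 change -3.57). In a model that holds both, depth and group cannot be told apart for these rows. The known rows called in that fit were miR-122, miR-192, miR-215, miR-12034 and miR-1246 as lower and let-7a-5p (0.90, adjusted p = 0.0245) and let-7f (1.14, adjusted p = 0.0153) as higher.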

How the data were processed

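Small RNA of serum vesicles was measured in 21 cows. The miRNeasy Mini kit served for extraction and the TruSeq small RNA kit for libraries, per the labels' protocols. The submitters' processing notes name Bowtie, edgeR and the ARS-UCD1.2 build without their roles. The authors deposited 1 table of signal, reads per 1000000 of a row block. In 10115 of 10115 values above 0 this was a whole number of reads within 0.05 reads, and the recovered reads were used for edgeR and DESeq2. The deposited signals of a block sum to 2.06% to 3.96% (known) or 8.71% to 18.4% (numbered) above 1000000. The 3 mean columns were not used.

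The main test was limma 3.58.1 with a trend on log2(signal + 100), in R 4.3.3, for the 7 clinical and 7 subclinical libraries. It took rows with a mean signal of at least 10 that were read in at least 5 of the 14 (617 rows, 12 residual degrees of freedom), with Benjamini-Hochberg adjustment over all of them and a threshold of 0.05. A fold change on this scale understates the change of low rows. edgeR 4.0.16 (quasi-likelihood, scaled within each block) and DESeq2 1.42.0 were alternatives. Library measures were compared by exact permutation of the 3432 splits. The fitting scripts were tested on simulated data. Alternatives were other pseudocounts, filters and scalings, depth or replicate number in the model, and each library left out; the edgeR fits with 1 scale or the replicate block, the fits without both replicate 7 libraries and the counts without healthy replicate 7 were added after the data were seen. The replicate 7 libraries of all groups, the healthy one included, carry other numbers in the labels (10 for clinical, 8 for subclinical). Labels give 1 library for each cow, and the tests set the difference between the groups against the spread between cows.

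Named known rows were the 8 lower and 5 higher rows by p, and all tested hepatocyte and miR-192/194/215 rows. The 2 most abundant tested rows of each other list and the first numbered rows by p were added. Further rows are marked as described after their values were seen. The groups, members and lists were chosen with earlier results of these data known. Of 46 named known rows 42 matched a RefSeq gene of a later assembly, which served only to find neighbours within 5000 bases. Mature sequences were not used here.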

Additional observations from a re-analysis of the deposited data

Results flagged for a closer look

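In 3 of 52 values tested for a gap, 1 library of a group of 7 stood apart from the other 6 by more than Dixon's 95% critical value for the gap as a part of the range, and chance flags about 1 group in 20. Known reads of clinical cow 7 (34565) had a gap of 0.622 of the range. miR-215 in subclinical cow 7, at 0 reads, had a gap of 0.773. 1_1270 in clinical cow 7 had a gap of 1, because this library held 1 read (a signal of 35.8) and the other 6 held 0.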

How the results depend on the processing

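limma called 17 rows, and 34 with a pseudocount of 1, 7 with 1000, 10 with rows read in at least 10 of 14 libraries, 26 with 1 scale for both blocks and 10 with depth as a covariate; edgeR called 39 and DESeq2 42. Fits without 1 library gave 15 to 36 limma calls (36 without subclinical cow 4, 26 without subclinical cow 2) and 29 to 47 edgeR calls. Median-ratio scaling, no filter and identical rows once each gave 17 calls. With depth as a covariate 7_15601 (0.077, adjusted p = 0.985), 17_32009 (0.18, 0.978) and 18_32724 (0.84, 0.843) turned positive; the cause was not tested. Over the settings of the named rows, 1584 values kept direction and side of the threshold, 43 newly passed, 44 no longer passed and 3 reversed.

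Same-numbered clinical and subclinical libraries had correlations of their deviations from -0.14 to 0.094, and 0 of 7 clinical libraries correlated best with their own number. These values show no pairing by number, but they cannot exclude that cows were matched. With the replicate block limma called 15 rows and edgeR 29. The differences in numbered reads (15499.9) and in the numbered top 10 share (8.33 percentage points) then had an adjusted exact permutation p of 0.0547. In both measures the clinical library was the higher one in every same-numbered pair, the most extreme result the blocked test can give. This p was therefore at its floor and does not show that the differences were lost. With 1 scale the top 10 share of all reads differed by 9.25 points (adjusted exact permutation p = 0.00544). Without 1 library the difference in known reads ran from -11541.5 to -5412, in known share from -25.4 to -17.0 points and in known rows read from -55.9 to -40.8. Low known depth in clinical libraries limits what can be seen of rows with few reads.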
